A study of Homo sapiens with 19 samples.

Results

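The enzymes that hydroxylate and crosslink collagen were followed through human liver organoids by droplet single-cell RNA sequencing. The set holds 10 genes, matched by Ensembl identifier, of the 32732 genes that every library of the shaker cultures lists: LOX and its relatives LOXL1, LOXL2, LOXL3 and LOXL4, the lysyl hydroxylases PLOD1, PLOD2 and PLOD3, and the prolyl hydroxylase subunits P4HA1 and P4HA2. All 10 were also listed for the static cultures, and all 10 passed the filter on low counts in every comparison below.

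The organoids were grown from W01, an established wild-type human pluripotent stem cell line distributed by WiCell, and 19 libraries in 9 groups were analysed. Static cultures on ultra-low attachment plates (ULA) were untreated and taken at day 21 (3 libraries) or day 34 (2 libraries). Cultures on an orbital shaker (OS) gave 2 libraries in each of 7 groups, all taken at day 25: untreated, TGF-β1 at 10 ng/ml with its control, PA at 500 µM with its control, and OA at 500 µM with its control. Shaker organoids were grown for 20 days and then treated for 5, and the protocol names TGF-β1 and PA but not OA. The labels spell out neither PA nor OA and do not say what the controls received. All groups share 1 cell line, so the spread between libraries is not a spread between donors. The labels number the libraries as replicates without saying whether they came from separate cultures, so the p-values measure the spread between these libraries, which may be technical.

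A collagen chain is modified inside the secretory pathway before it is crosslinked outside the cell. Prolyl 4-hydroxylases, built from a catalytic alpha subunit such as P4HA1 or P4HA2 and the beta subunit P4HB, hydroxylate prolines and so stabilise the triple helix. Lysyl hydroxylases modify lysines: PLOD1 acts mainly on the helix, PLOD2 on the telopeptides, whose hydroxylysines give stable crosslinks, and PLOD3 also adds glucose to galactosylated hydroxylysine. The copper enzymes LOX and LOXL1 to LOXL4 then oxidise lysines and hydroxylysines of collagen and elastin in the matrix, and in fibrotic liver this crosslinking is known to make scar stiffer and slower to resolve.

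On GRCh38 with the GENCODE v44 annotation, LOX lies at chr5:122063195-122078413, LOXL1 at chr15:73925989-73952137, LOXL2 at chr8:23296897-23425328, LOXL3 at chr2:74532258-74555690 and LOXL4 at chr10:98247690-98268194. PLOD1 lies at chr1:11934205-11975538, PLOD2 at chr3:146035139-146163725, PLOD3 at chr7:101205977-101218420, P4HA1 at chr10:73007217-73096974 and P4HA2 at chr5:132190147-132295315. LOXL2 overlaps the protein-coding gene ENTPD4 on its own strand, PLOD2, P4HA1 and P4HA2 overlap noncoding genes on theirs, and every member except PLOD1 overlaps a gene on the other strand. The sources used here do not state whether strand was used in counting, and the part of reads from overlapping genes in the members' counts was not tested.

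The values are unique molecular identifiers (UMIs, 1 per captured RNA molecule) summed over the cells of a library and scaled to a total of 1000000 (CPM). Cells entered with 500 or more genes detected and with mitochondrial genes taking no more than 20% of their UMIs. The kept cells numbered 3089 to 12427 per library, with 1310.0 to 14304.5 median UMIs per cell. The control libraries numbered 1 of the TGF-β1 and PA experiments were the shallowest, at 1310.0 and 1747. Cells were also divided by their UMIs. EPCAM-positive cells had at least 1 UMI of EPCAM, an epithelial adhesion molecule, and none of the fibrillar collagen genes COL1A2 and COL3A1. COL1A2/COL3A1-positive cells, called collagen-positive below, had the reverse. Pairs of libraries shared 2 to 43 cell barcodes, at most 0.553% of the smaller library. Markers that did not define the classes were compared between them. COL1A1 was at 308 to 4329 CPM in collagen-positive cells and 3.65 to 405 CPM in EPCAM-positive cells. KRT8, an epithelial keratin, was at 259.8 to 796 CPM in the first and 1259 to 2885 CPM in the second. In each library COL1A1 was higher in collagen-positive and KRT8 in EPCAM-positive cells. The hepatocyte marker ALB in whole libraries lay between 0.0385 and 687 CPM. The EPCAM-positive class is named by that gene alone and is not called a hepatocyte class.

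Across the 9 groups each LOX family gene had its own order of levels. LOX was at 26.6 ± 5.44 CPM with TGF-β1 (mean ± SD, n = 2), at 24.8 ± 26.1 CPM in day 34 ULA organoids (n = 2), at 21.1 ± 8.61 CPM in untreated shaker organoids (n = 2) and at 19.1 ± 7.82 CPM in the OA control (n = 2). These neighbours overlapped in their libraries, as did day 21 ULA organoids at 10.2 ± 2.90 CPM (n = 3). The TGF-β1 control at 7.77 ± 0.700 CPM (n = 2) and the PA control at 3.66 ± 0.371 CPM (n = 2) each lay apart from the group above, and OA organoids were lowest at 1.99 ± 0.124 CPM (n = 2), overlapping PA. LOXL4 spread widest, from 162 ± 31.5 CPM with TGF-β1 (n = 2) to 0.604 ± 0.114 CPM in day 21 ULA organoids (n = 3). Apart from PA and its control, no neighbouring groups in the order of LOXL4 overlapped. LOXL1, LOXL2 and LOXL3 were all lowest with OA, at 0.689 ± 0.0572, 0.984 ± 0.211 and 0.114 ± 0.0295 CPM (n = 2 each), and none of the 3 overlapped the group above. The share of all genes whose groups lie apart in these ways was not counted.

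The hydroxylases varied over a narrower fold range. PLOD3 ranged from 24.3 ± 6.97 CPM in day 34 ULA organoids (n = 2) to 57.3 ± 2.95 CPM in the PA control (n = 2). PLOD1 was lowest with OA at 23.4 ± 1.32 CPM (n = 2) and highest in day 34 ULA organoids at 69.5 ± 45.4 CPM (n = 2). PLOD2 was highest in untreated shaker organoids at 97 ± 37.5 CPM and in OA organoids at 93.1 ± 21.6 CPM (n = 2 each), and every neighbouring pair in its order overlapped. P4HA1 was lowest in the PA control at 38.6 ± 3.45 CPM (n = 2), and P4HA2 in the TGF-β1 control at 26 ± 11.5 CPM (n = 2). The ULA libraries, the libraries of the TGF-β1 and PA experiments, and those of the OA experiment with the untreated shaker organoids list different numbers of genes. Levels across these 3 sets stand side by side with no test.

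**Figure D1:**
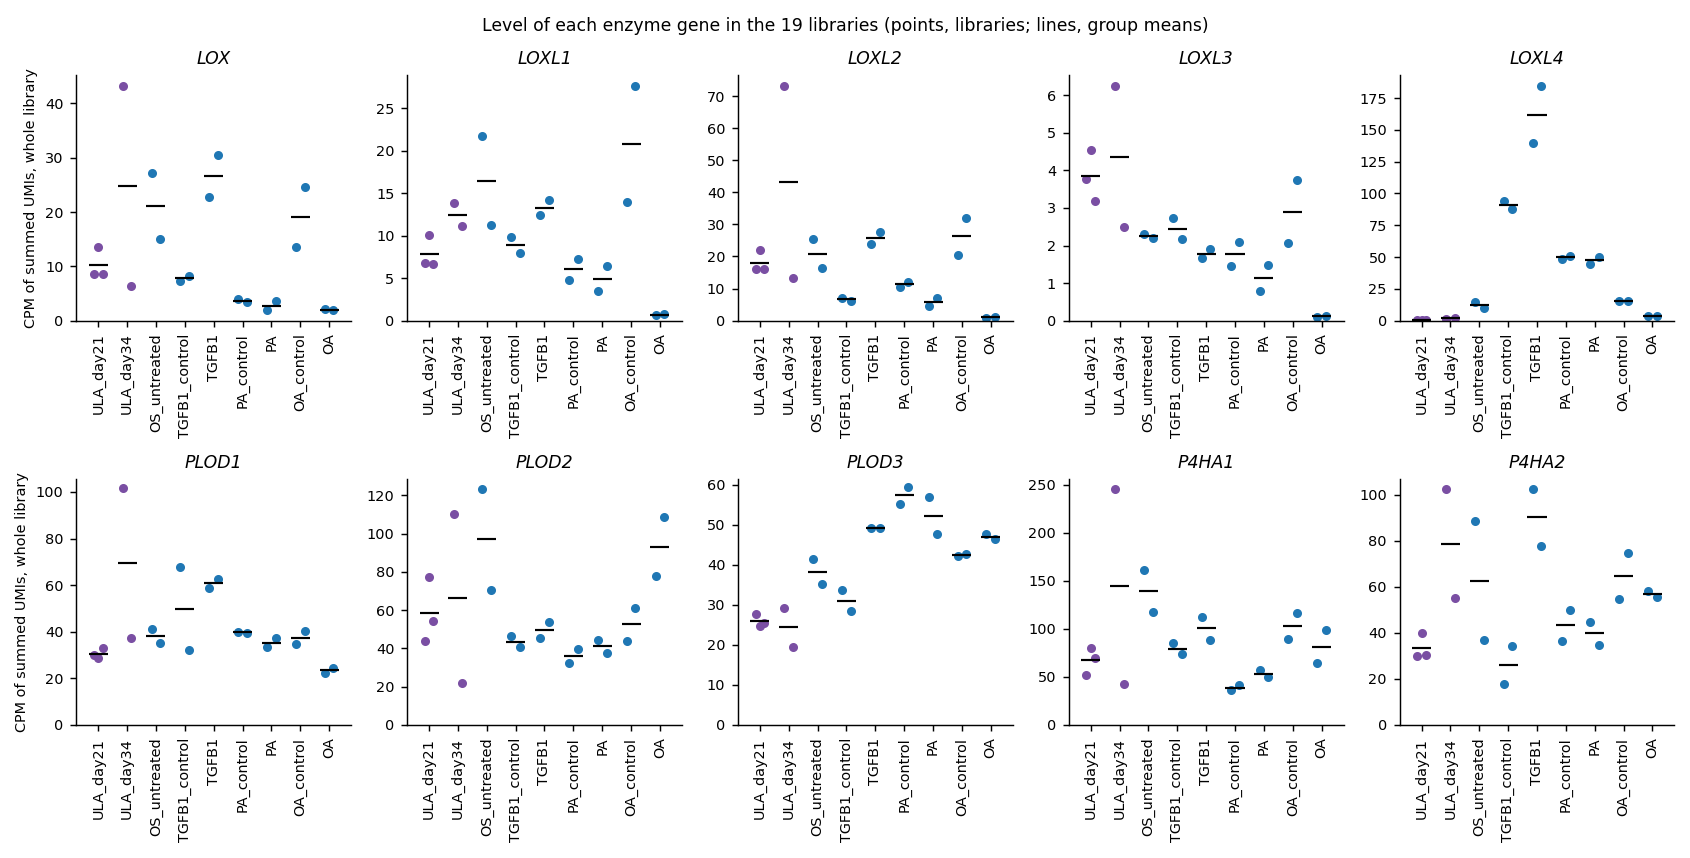
Level of each gene (y axis, CPM of summed UMIs, linear from 0) in the 9 groups (x axis); points are libraries, lines are group means, violet marks ULA and blue OS. LOXL1, LOXL2 and LOXL3 sit lowest with OA, and the 2 day 34 ULA libraries lie far apart for LOX, LOXL2, PLOD1, PLOD2 and P4HA1.

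In a fit over the shaker libraries, the collagen-positive class held higher levels of 9 members and a lower level of LOXL4. The fit took a common class difference for treated and untreated libraries, and PLOD2 and PLOD3 ran the other way in some. In PA libraries collagen-positive cells held as little as 2.65% of PLOD2 and 3.70% of PLOD3 UMIs, against 4.16 to 4.66% of all UMIs. In the OA library fitted, PLOD2 was also lower in collagen-positive than in EPCAM-positive cells, as given below. The difference between classes was tested within libraries, over the 13 shaker libraries with at least 50 cells of each class, and 10 of 10 members passed an adjusted p under 0.05, as did 62.7% of the 14047 genes tested (31.2% higher and 31.5% lower in collagen-positive cells). LOXL2 showed the widest gap, at 86.8 and 94.1 CPM in collagen-positive and 0.697 and 2.27 CPM in EPCAM-positive cells of the OA control. Its log2 difference, collagen-positive minus EPCAM-positive, was 5.34 ± 0.32 (SE, adjusted p = 6.5e-10). LOX differed by 5.03 ± 0.40 (adjusted p = 1.8e-08), LOXL1 by 3.55 ± 0.19 (adjusted p = 1.8e-10) and LOXL3 by 2.85 ± 0.27 (adjusted p = 1.0e-07).

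The hydroxylases differed between the classes by less than these 4 LOX family genes. P4HA1 was higher in collagen-positive cells by 1.66 ± 0.13 (adjusted p = 1.0e-08), P4HA2 by 1.2 ± 0.19 (adjusted p = 5.1e-05), PLOD1 by 1.06 ± 0.16 (adjusted p = 2.0e-05) and PLOD2 by 0.95 ± 0.23 (adjusted p = 0.0017) on the log2 scale. PLOD3 passed narrowly at 0.39 ± 0.16 (adjusted p = 0.041), and lost its call under 3 other settings and without any of 9 libraries taken out in turn. LOXL4 ran the other way, at -3.19 ± 0.29 (adjusted p = 8.2e-08). In the TGF-β1 control it was at 99.6 and 92.7 CPM in EPCAM-positive and 39 and 4.24 CPM in collagen-positive cells. The first collagen-positive value came from the shallow library, where CDH1, the epithelial cadherin, was at 76.6 CPM in the same cells against 6.59 CPM in the other control library. The part of epithelial RNA in that LOXL4 value was not tested.

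Partners of the hydroxylases were mostly higher in the collagen-positive class, in a comparison that called 62.7% of all genes. Of the 17 folding and modification partners, 14 were higher there and 0 lower, with a median log2 difference of 1.51 against 0.02 over all genes tested. FKBP10, a chaperone needed for telopeptide lysine hydroxylation, differed by 1.92 and CRTAP, of the prolyl 3-hydroxylation complex, by 1.91. Among the collagen and elastin substrates 11 higher and 0 lower of 12 passed, with COL6A3 at 8.51 and ELN, the elastin gene, at 6.06. Of the procollagen processing and matrix assembly genes, 12 higher and 0 lower of 13 passed, among them FBN1, the fibrillin of microfibrils, at 7.33.

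**Figure D2:**
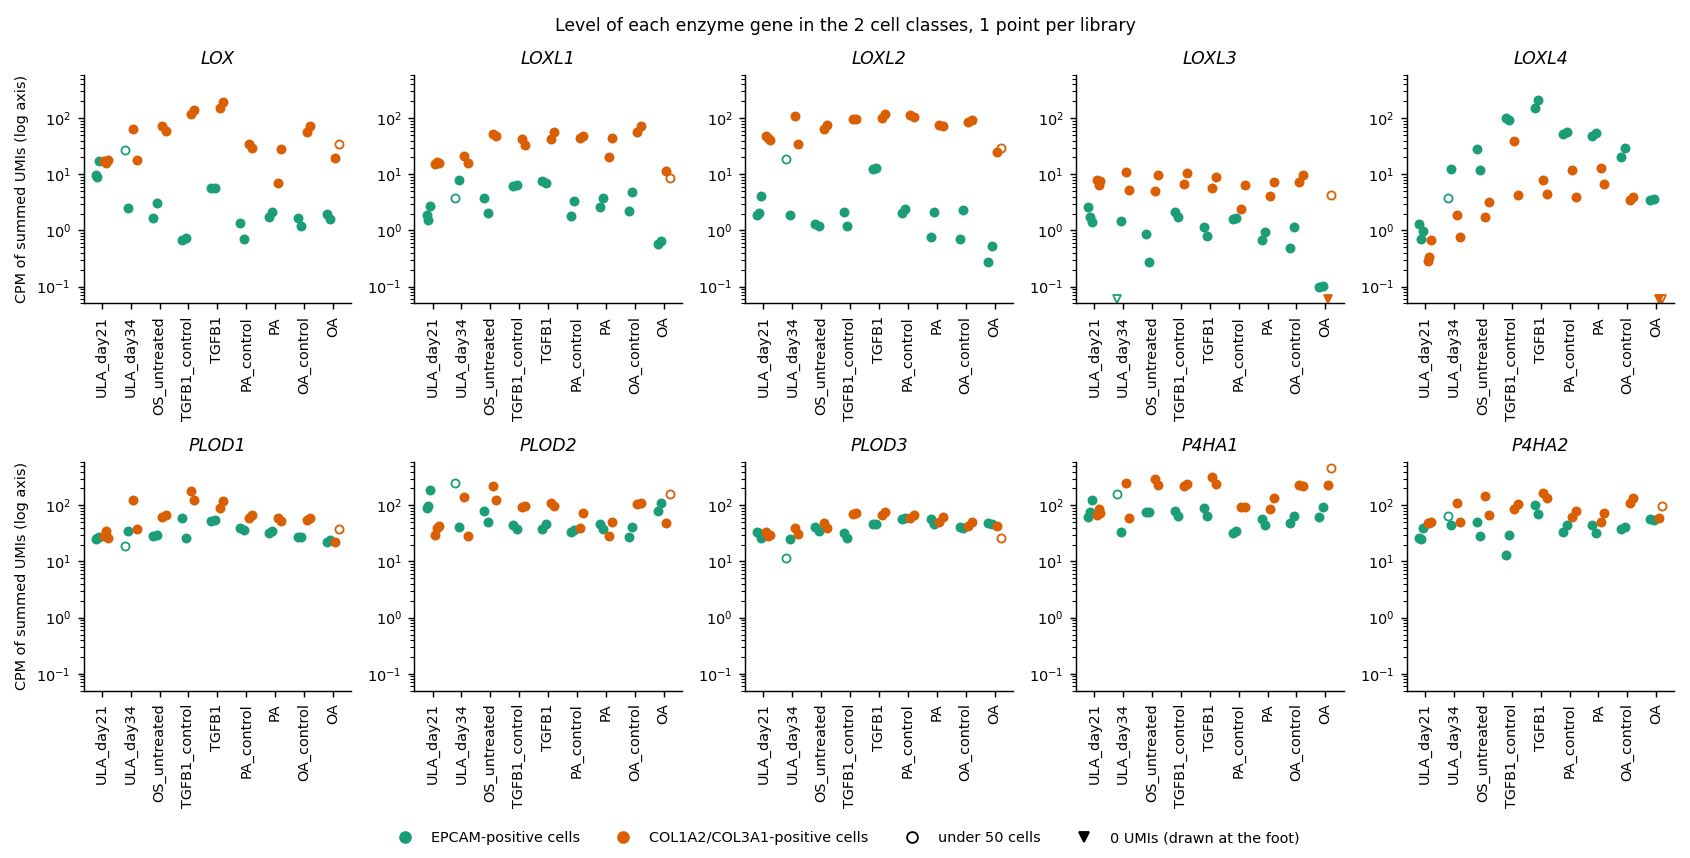
CPM of each gene (y axis, log scale) in EPCAM-positive (green) and COL1A2/COL3A1-positive cells (orange), 1 point per library, by group (x axis); open points rest on under 50 cells and triangles on 0 UMIs. LOX, LOXL1 and LOXL2 lie higher in the orange class in the OS groups, LOXL4 lies higher in the green class, and the hydroxylases lie closer together.

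In the ULA organoids the class difference could be tested in 4 libraries, since day 34 replicate 1 had 23 EPCAM-positive cells. There 6 of 10 members passed, against 54.7% of 17012 genes (25.9% higher, 28.8% lower). LOXL2 (3.91 ± 0.26), LOXL1 (2.29 ± 0.38) and LOXL3 (1.67 ± 0.21) were again higher in collagen-positive cells and LOXL4 (-2.33 ± 0.61) lower. PLOD2 was lower in collagen-positive cells (log2 -1.63 ± 0.29, adjusted p = 0.0059). At day 21 PLOD2 stood at 89.4, 189 and 97.6 CPM in EPCAM-positive and 30.1, 43.2 and 39.5 CPM in collagen-positive cells. These values did not overlap, and the share of all genes for which this holds was not counted. LOX had 0.72 ± 0.42 and did not pass (adjusted p = 0.19), but did without the cells with most UMIs (1.05, adjusted p = 0.040). Of the hypoxia-inducible genes 0 higher and 14 lower of 14 tested passed in the same comparison, with VEGFA at -1.46 and CA9 at -3.82. P4HA1, PLOD1 and PLOD3 did not pass. The log2 difference of P4HA1 ran from -0.36 to 0.18 with each library left out in turn. P4HA2 passed at 0.37 ± 0.12 and lost its call without any 1 of the day 21 libraries. LOXL4 lost its call without day 21 replicate 1 or 3.

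TGF-β1, a cytokine that drives matrix production in fibrotic liver, was compared with its own control. In whole libraries 5 of 10 members rose and none fell, against 22.2% of 19366 genes called in either direction (10.9% higher, 11.3% lower). LOX was at 7.28 and 8.26 CPM in the control and 22.8 and 30.5 CPM with TGF-β1, a rise of 3.87-fold (log2 1.95 ± 0.34, adjusted p = 0.0013). LOXL2 was at 7.15 and 6.22 CPM and 24 and 27.7 CPM, a rise of 4.45-fold (log2 2.15 ± 0.26, adjusted p = 8.8e-05). P4HA2 was at 17.9 and 34.2 CPM and 103 and 77.6 CPM, a rise of 3.85-fold (log2 1.95 ± 0.38, adjusted p = 0.0030). In each of the 3 genes both treated libraries lay above both controls, and the share of all genes that did so was not counted. A sum over a library cannot tell fewer cells of a type from less RNA per cell.

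LOXL4 and PLOD3 rose by less. LOXL4 went from 94.4 and 87.7 CPM to 139.7 and 184 CPM (log2 1.03 ± 0.19, adjusted p = 0.0018), and PLOD3 from 33.8 and 28.3 CPM to 49.2 and 49.2 CPM (log2 0.87 ± 0.16, adjusted p = 0.0022). The other 5 members did not pass. PLOD1 had 0.52 ± 0.23, with control libraries at 67.6 and 32.2 CPM around the treated 58.9 and 62.7 CPM. P4HA1 had 0.55 ± 0.22, LOXL1 0.79 ± 0.34, PLOD2 0.39 ± 0.24 and LOXL3 -0.25 ± 0.34. The 5 calls stood under all 12 alternatives run for this comparison, and LOXL1 was called without a filter on low counts (0.81, adjusted p = 0.019) and with only the 2 groups compared (0.79, adjusted p = 0.042).

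Collagen-positive cells were 4.57 and 3.92% of the control cells and 8.55 and 9.56% of the treated cells, and cells with UMIs of both classes were 1.93 and 5.24% and 15.8 and 8.65%. Cells of neither class were 44.7 and 4.91% of the control cells and 7.38 and 4.19% of the treated cells. Median UMIs per cell were 1310 and 5635 in the controls and 7092.5 and 5201.5 with TGF-β1. A class needs only 1 UMI, so these shares can depend on depth, which was not tested. The summed level of the 10 mesenchymal markers was 679 and 771 CPM and 2384 and 2511 CPM. Within EPCAM-positive cells, the same 5 genes were called, against 25.0% of 17527 genes (12.3% higher, 12.7% lower). LOX there was at 0.667 and 0.720 CPM in the controls and 5.60 and 5.78 CPM with TGF-β1 (log2 3.16 ± 0.42, adjusted p = 0.00010). The control values of LOX rest on few UMIs. EPCAM-positive cells held 5.22 to 7.64% of the LOX UMIs of a control library, and the 2 libraries had 547 in all cells. LOXL2 was at 2.11 and 1.18 CPM and 12.4 and 13.2 CPM (log2 3.26 ± 0.48, adjusted p = 0.00025). P4HA2 was at 13 and 30.1 CPM and 101 and 71.2 CPM (log2 2.13 ± 0.37, adjusted p = 0.00087). The control and treated libraries did not overlap in these 3 genes, and the share of all genes without overlap was not counted.

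PLOD3 rose by 0.87 ± 0.18 (adjusted p = 0.0028) in EPCAM-positive cells and LOXL4 by 1.12 ± 0.27 (adjusted p = 0.0076), and LOXL4 lost its call without TGF-β1 replicate 2 (0.89, adjusted p = 0.077). In the same cells the mesenchymal markers, without COL1A2 and COL3A1, which define the class, summed to 78.3 and 119 CPM in the controls and 1116 and 969 CPM with TGF-β1. COL1A1 was at 33.5 and 17.2 CPM and 348 and 405 CPM, while DCN, a proteoglycan of fibroblasts, was at 0.111 and 0.393 CPM and 0.0949 and 0 CPM, against 43.5 and 65.9 CPM in collagen-positive cells with TGF-β1. The part of free RNA from other cells in these levels was not tested.

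In collagen-positive cells 0 of 10 members were called with TGF-β1 by edgeR, where 3 of 14189 genes (0.0211%) were, and DESeq2 called none either; 2 members had an unadjusted p under 0.05. LOX was at 118 and 142 CPM in the controls and 152 and 196 CPM with TGF-β1, a log2 change of 0.66 ± 0.35 with an interval of 2 standard errors from -0.03 to 1.35. LOXL2 was at 98.1 and 97.4 CPM and 101 and 117 CPM, with an interval from -0.06 to 0.88. P4HA2 was at 84.7 and 107 CPM and 169 and 132 CPM, with an interval from 0.18 to 1.56. These sums rest on 333 to 660 cells per library. LOXL4 had a log2 change of -1.20, which was -2.21 (adjusted p = 0.030) without control replicate 2 and 1.23 (adjusted p = 0.017) with cells of both classes' UMIs kept, an alternative chosen after seeing the data.

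The difference between the responses of the classes was tested as an interaction, and 4 of 10 members passed, against 6.32% of 18747 genes (2.61% higher, 3.71% lower). The change with TGF-β1 was smaller in collagen-positive than in EPCAM-positive cells for LOXL2, with a log2 difference of -2.91 ± 0.36 (adjusted p = 7.1e-06). It was also smaller for LOX, at -2.57 ± 0.41 (adjusted p = 0.00019) and for P4HA2, at -1.23 ± 0.26 (adjusted p = 0.0039). For PLOD1 the difference was -0.82 ± 0.23 (adjusted p = 0.037), between a change of -0.22 ± 0.23 in collagen-positive and 0.52 ± 0.25 in EPCAM-positive cells, neither of which passed by itself. LOX lost this call without control replicate 2 (-2.29, adjusted p = 0.068) and P4HA2 without TGF-β1 replicate 1 (-1.16, adjusted p = 0.059). PLOD1 lost it without control replicate 2 (-0.33, adjusted p = 0.56), without TGF-β1 replicate 1 (-0.67, adjusted p = 0.29) and without the cells with most UMIs.

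**Figure D3:**
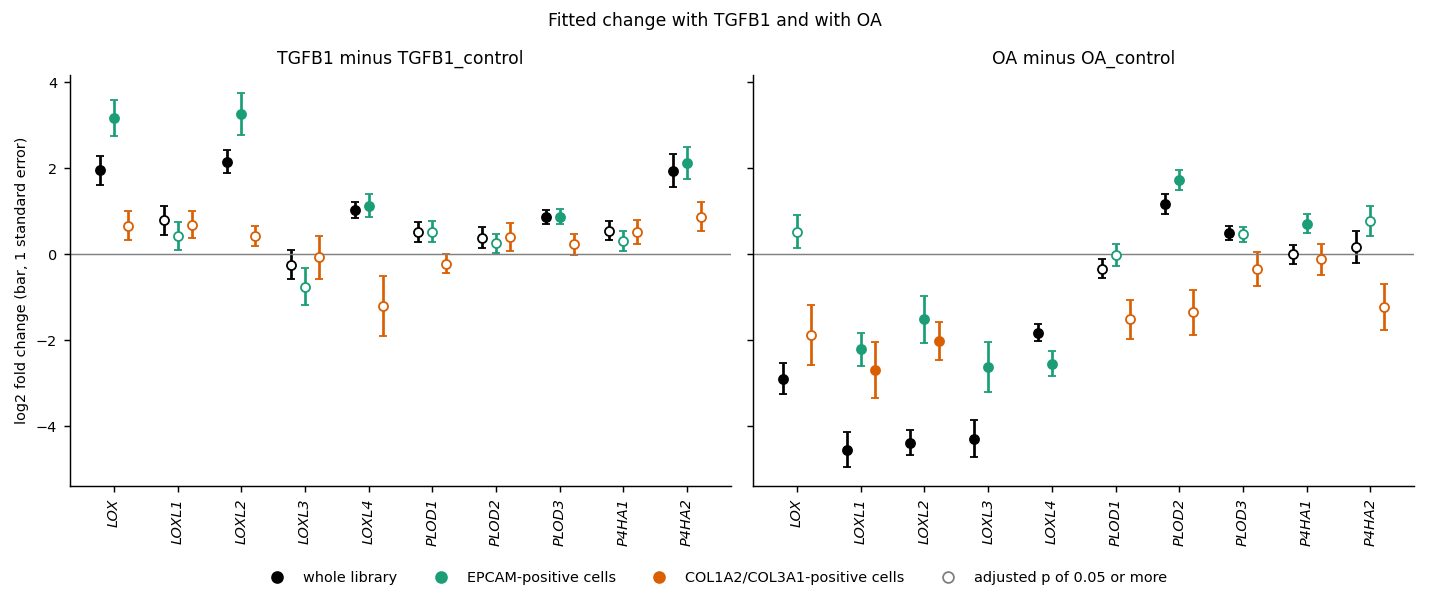
Fitted log2 fold change (y axis; bars, 1 standard error) of each gene (x axis) with TGF-β1 (left) and with OA (right), in whole libraries (black), EPCAM-positive (green) and collagen-positive cells (orange); filled points passed an adjusted p under 0.05. LOX and LOXL2 rose with TGF-β1 in the black and green sets, and with OA the LOX family genes lie below 0 apart from LOX in green; LOXL3 and LOXL4 are not drawn in orange for OA, where the library fitted, OA replicate 1, had 0 UMIs of each.

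Other genes of collagen assembly rose with TGF-β1 in whole libraries, where 22.2% of all genes were called (25.0% in EPCAM-positive cells). Of the folding and modification partners, 10 higher and 0 lower of 17 passed, with a median of 0.82 against -0.05 over all genes. They include P3H3 (1.07), a prolyl 3-hydroxylase family member, FKBP10 (1.09), PPIB (1.38), a prolyl isomerase of collagen folding, and P4HB (0.77). Of the processing and assembly genes 8 higher and 0 lower of 16 passed. They include BMP1 (1.39), which cleaves procollagen and also the LOX proenzyme, ADAMTS2 (1.94), SPARC (1.91) and TLL1 (3.58). Of the substrates 12 higher and 0 lower of 14 passed, with COL6A3 at 1.70 and COL1A1 at 2.15. Of 9 TGF-beta target genes 7 rose, among them PMEPA1 (2.23) and TGFBI (2.64). Of 14 hypoxia-inducible genes 2 rose and 3 fell, with EGLN3 at 2.25 and VEGFA at -1.54. In EPCAM-positive cells 9 higher and 0 lower of 17 partners passed, among them P3H1, the main prolyl 3-hydroxylase of collagen, at 1.09. There 9 higher and 0 lower of 11 substrates passed, with COL1A1 at 4.13 and COL5A1 at 2.68, and 1 higher and 5 lower of 8 hepatocyte markers. The sum of these 8 markers went the other way in EPCAM-positive cells, from 2797 to 4175 CPM in the controls to 5231 to 6162 CPM with TGF-β1.

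OA was compared with its own control. In whole libraries all 5 LOX family genes fell and PLOD2 and PLOD3 rose, so that 7 of 10 members were called, against 43.3% of 19366 genes (21.7% higher, 21.6% lower). LOXL1 was at 14 and 27.6 CPM in the control and 0.649 and 0.730 CPM with OA, 23.4-fold lower (log2 -4.55 ± 0.41, adjusted p = 4.8e-06). LOXL2 was at 20.5 and 32 CPM and 0.834 and 1.13 CPM, 20.9-fold lower (log2 -4.38 ± 0.29, adjusted p = 8.8e-07). LOXL3 was at 2.07 and 3.74 CPM and 0.0927 and 0.134 CPM, the last 2 values from 5 and 7 UMIs (log2 -4.29 ± 0.44, adjusted p = 1.1e-05). For each of these genes the treated libraries lay below both controls, and the share of all genes that did so was not counted.

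LOX was at 13.5 and 24.6 CPM in the control and 2.08 and 1.90 CPM with OA (log2 -2.90 ± 0.36, adjusted p = 4.2e-05). LOXL4 was at 15.1 and 15.6 CPM and 3.30 and 3.55 CPM (log2 -1.83 ± 0.20, adjusted p = 1.6e-05). PLOD2, the telopeptide lysyl hydroxylase, went the other way, from 43.9 and 61.4 CPM to 77.8 and 108 CPM (log2 1.17 ± 0.24, adjusted p = 0.0016). Untreated shaker organoids, at 70.5 and 124 CPM of PLOD2, overlapped the OA libraries. PLOD3 rose by 0.49 ± 0.16 (adjusted p = 0.026), but this call was lost under 4 other settings and without any 1 of the 4 libraries compared. P4HA1 had 0.00 ± 0.22, P4HA2 0.17 ± 0.37 and PLOD1 -0.34 ± 0.23, and none of these passed.

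The makeup of the OA libraries differed as well. Collagen-positive cells were 35.3 and 37.5% of control cells and 1.94 and 1.18% of OA cells, and the mesenchymal markers summed to 2827 and 4757 CPM and 168 and 131 CPM. Collagen-positive cells held 77% and 79.8% of all LOX UMIs in the control libraries and 6.25% and 8.08% in the OA libraries. For LOXL4 the EPCAM-positive cells held 46.6% and 56.7% in the control libraries and 96.2% and 97.2% with OA. Of all UMIs, EPCAM-positive cells held 25.2% and 41.3% in the control and 92.7% and 93.4% with OA.

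**Figure D4:**
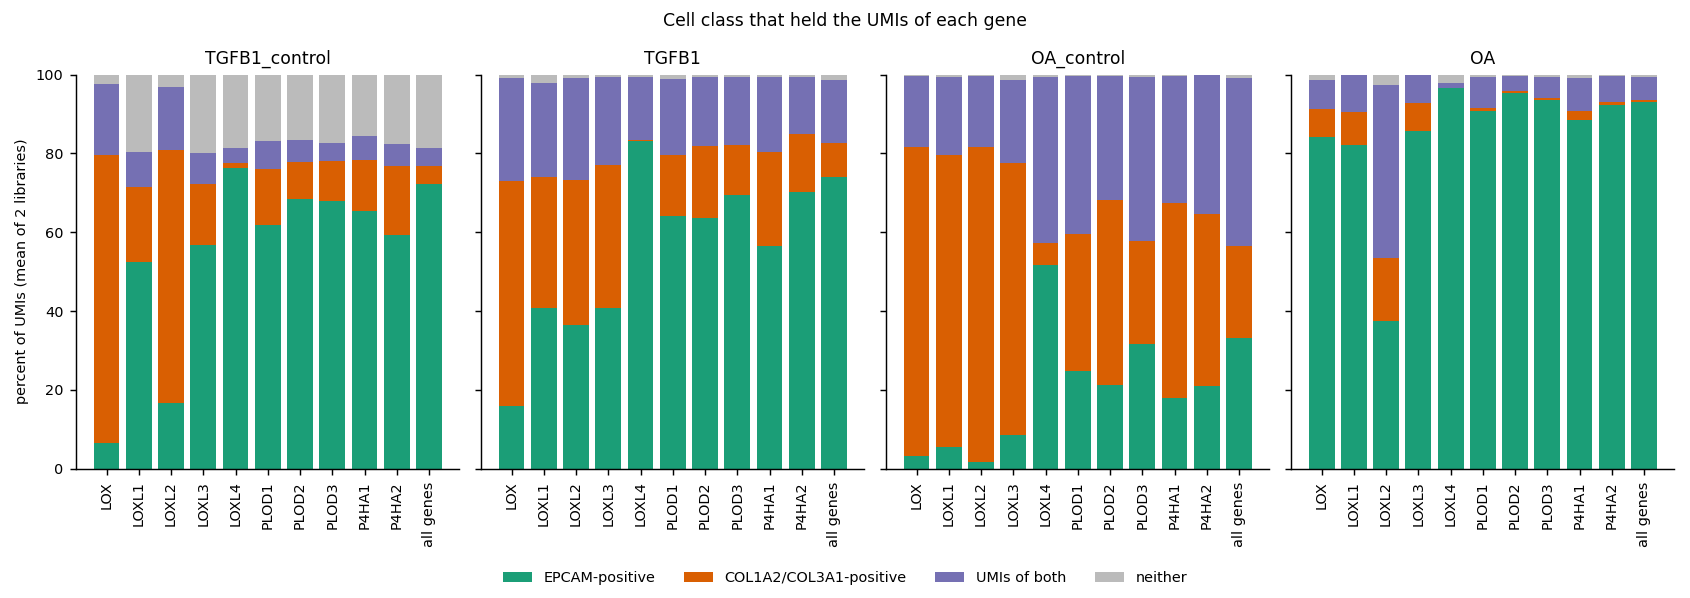
Percent of each gene's UMIs (y axis, mean of 2 libraries, stacked) held by EPCAM-positive, COL1A2/COL3A1-positive, double and neither cells, by gene and for all genes (x axis), in the TGF-β1 and OA experiments. The orange share of LOX is 77% and 79.8% in the 2 OA control libraries and 6.25% and 8.08% with OA, beside 18.8% and 27.5% and 0.448% and 0.657% of all UMIs.

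Within EPCAM-positive cells, 6 of 10 members were called with OA, against 35.9% of 17527 genes (19.1% higher, 16.8% lower): 4 LOX family genes fell, and PLOD2 and P4HA1 rose. LOXL4 fell from 20.8 and 28.9 CPM to 3.46 and 3.66 CPM (log2 -2.55 ± 0.29, adjusted p = 3.7e-05). Its level in collagen-positive control cells, 3.55 and 4.02 CPM, was below that in EPCAM-positive control cells. LOXL1 fell from 2.18 and 4.77 CPM to 0.580 and 0.638 CPM (log2 -2.21 ± 0.38, adjusted p = 0.00060). LOXL3, at 0.479 and 1.13 CPM in the control, went to 0.100 and 0.103 CPM (log2 -2.63 ± 0.58, adjusted p = 0.0032). The OA values of LOXL3 rest on few UMIs, since all cells of the 2 OA libraries held 12. LOXL2 went from 0.697 and 2.27 CPM to 0.280 and 0.535 CPM (log2 -1.52 ± 0.54, adjusted p = 0.041). Without OA control replicate 2 the calls of LOXL3 (-2.05, adjusted p = 0.051) and LOXL2 (-0.63, adjusted p = 0.51) were lost, and that of LOXL2 also without OA replicate 1 (-1.14, adjusted p = 0.24) and without the cells with most UMIs (-1.34, adjusted p = 0.061).

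PLOD2 rose in EPCAM-positive cells from 27 and 41.7 CPM to 80.5 and 110.0 CPM (log2 1.72 ± 0.23, adjusted p = 0.00011). P4HA1 rose by 0.71 ± 0.23 (adjusted p = 0.026), a call lost without OA control replicate 1 (0.63, adjusted p = 0.15), OA control replicate 2 (0.82, adjusted p = 0.073) or OA replicate 2 (0.42, adjusted p = 0.27), and with cells of both classes' UMIs kept (0.51, adjusted p = 0.091). LOX was at 1.66 and 1.21 CPM in the control and 1.98 and 1.62 CPM with OA in these cells and did not pass (log2 0.53 ± 0.39, adjusted p = 0.32). With cells of both classes' UMIs kept it fell, by 1.22 on the log2 scale (adjusted p = 0.0053). In the same cells the mesenchymal markers summed to 112 and 131 CPM and 70.7 and 50.4 CPM, COL1A1 was at 30.2 and 41.2 CPM and 5.10 and 5.55 CPM, and the hepatocyte marker ALB was at 28.5 and 6.96 CPM and 691 and 311 CPM. The part of these differences in the members' changes was not tested.

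Only OA replicate 1, with 60 cells, had enough collagen-positive cells for a fit, so its spread is assumed to be that of the other groups. In that fit 2 of 10 members were called, against 3.76% of 14189 genes (2.3% higher, 1.46% lower), and the median log2 change of all genes was -0.32. LOXL1 was at 57 and 72.2 CPM in the control and 11.3 CPM with OA, from 4 UMIs (log2 -2.70 ± 0.65, adjusted p = 0.031). LOXL2 was at 86.8 and 94.1 CPM and 25.5 CPM, from 9 UMIs (log2 -2.02 ± 0.43, adjusted p = 0.015). Both calls were lost without OA control replicate 2 (-2.52, adjusted p = 0.087 for LOXL1 and -1.96, adjusted p = 0.058 for LOXL2). With cells of both classes' UMIs kept, LOX (-2.51, adjusted p = 0.0012), LOXL3 (-3.57, adjusted p = 0.0077) and LOXL4 (-4.12, adjusted p = 0.00011) were called as well. LOXL3 and LOXL4 had 0 UMIs in the collagen-positive cells of OA replicate 1, which allows up to 8.49 CPM (3 UMIs, counting error only). The control levels of LOXL3, 7.30 and 9.78 CPM, lie on either side of that limit. Those of LOXL4, 3.55 and 4.02 CPM, are under it, so a fall was not detectable at this depth. OA replicate 2, left out of the fit with 38 cells, had LOXL1 at 8.58 CPM from 2 UMIs, LOXL2 at 30.0 CPM from 7 UMIs, LOXL3 at 4.29 CPM from 1 UMI and LOXL4 at 0 UMIs. In collagen-positive cells 8 mesenchymal markers summed to 5931 and 6921 CPM in the control and 1387 and 2030.3 CPM in the 2 OA libraries, and 6 epithelial markers to 965 and 1007 CPM and 4241 and 3794 CPM. COL1A1 was at 3093 and 3642 CPM and 478 and 335 CPM there, and KRT19, a biliary keratin, at 165 and 160.1 CPM and 1036 and 506 CPM. The part of epithelial RNA in the members' changes in this class was not tested.

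The interaction of class and OA was called for 4 of 10 members, against 8.36% of 18747 genes (1.8% higher, 6.56% lower), beside a median of -0.80 over all genes and the shift from mesenchymal to epithelial markers given above. The log2 change in collagen-positive cells minus that in EPCAM-positive cells was -3.06 ± 0.43 (adjusted p = 8.7e-05) for PLOD2, -2.23 ± 0.41 (adjusted p = 0.0010) for P4HA2, -2.70 ± 0.70 (adjusted p = 0.017) for LOX and -1.65 ± 0.51 (adjusted p = 0.048) for PLOD1. PLOD2 lay at 106 and 109 CPM in the collagen-positive cells of the control and 48.1 CPM in those of OA replicate 1, from 17 UMIs. In OA replicate 2, which was not in the fit, it lay at 159 CPM from 37 UMIs, above both controls. The 2 OA libraries thus lie on opposite sides of the controls, and with cells of both classes' UMIs kept the change of PLOD2 in collagen-positive cells was 0.18. Without OA control replicate 2, LOX (-2.32, adjusted p = 0.052) and PLOD1 (-1.53, adjusted p = 0.11) were no longer called, and PLOD1 was not called without control replicate 1 either (-1.51, adjusted p = 0.088). DESeq2 and another normalization also ended the calls of LOX and PLOD1.

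Of the lists around the enzymes, more genes fell than rose with OA in whole libraries, where 43.3% of all genes were called (35.9% in EPCAM-positive cells). Of the folding and modification partners 3 higher and 10 lower of 17 passed, with P3H3 at -2.49, CRTAP at -2.07 and FKBP10 at -1.96, while TMEM38B, an ion channel of the endoplasmic reticulum, was at 1.76. Of the processing and assembly genes 2 higher and 13 lower of 16 passed, with PCOLCE at -5.46 and FBLN5 at -4.83, and of the substrates 0 higher and 13 lower of 14, with COL6A3 at -6.58 and COL1A1 at -5.85. In EPCAM-positive cells 3 higher and 7 lower of 17 partners passed. Of the processing and assembly genes 3 higher and 6 lower of 15 passed there. ATP7A, the copper pump that supplies the LOX enzymes, was higher, at 1.45, and PCOLCE, an enhancer of procollagen cleavage, was lower, at -1.51. Of the hepatocyte markers 6 higher and 1 lower of 8 passed in these cells, with AFP at 3.09, and of the mesenchymal markers 1 higher and 5 lower of 8. The 8 hepatocyte markers summed there to 15949 to 16690 CPM in the OA control and 15601 to 18080 CPM with OA. Of the hypoxia-inducible genes 4 higher and 1 lower of 14 passed in whole libraries, among them EGLN1 (1.53) and ANKRD37 (-1.91), a share no higher than that of all genes.

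No member passed the threshold with PA. edgeR called 0 of 10 members in whole libraries (9 of 19366 genes, 0.0465%), in EPCAM-positive cells (18 of 17527 genes, 0.103%) and in collagen-positive cells (0 of 14189 genes, 0.0%). DESeq2 called no member in any of the 3 either. At an unadjusted p under 0.05 there were 2, 2 and 1 members. LOXL2 had the largest change in whole libraries, from 10.6 and 12 CPM to 4.66 and 7.04 CPM, a log2 change of -0.88 ± 0.26 with an interval of 2 standard errors from -1.41 to -0.36. P4HA1 was at 36.2 and 41.1 CPM and 57.4 and 49.6 CPM, with an interval from 0.08 to 0.97. In whole libraries the mesenchymal markers summed to 643 to 1137 CPM in the PA control and 413 to 662 CPM with PA. Collagen-positive cells were 7.15 and 10.0% of the control cells and 5.25 and 6.50% of the PA cells. Their part in the members' changes was not tested. In EPCAM-positive cells LOX was at 1.35 and 0.710 CPM, the first from 6 UMIs, and 1.72 and 2.11 CPM, a log2 change of 1.24 ± 0.46 (adjusted p = 1.0). The interaction of class and PA passed for 0 of 10 members by edgeR and by DESeq2, against 0.0107% of genes, with 2 members under an unadjusted p of 0.05.

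The OA control was also compared with untreated shaker organoids; the comparison shares its control libraries with that of OA. edgeR called 0 of 10 members in whole libraries (0.573% of genes), in EPCAM-positive cells (1.28%), in collagen-positive cells (0.0352%) and for the interaction (0.16%). At an unadjusted p under 0.05 there were 2, 1, 1 and 0 members. DESeq2 called 1 member, PLOD2, in EPCAM-positive cells (log2 -0.77, DESeq2 adjusted p = 0.036) and none in the others. PLOD2 is the member that rose with OA against these same control libraries. Its mean with OA was 93.1 CPM, beside 97.0 CPM in untreated organoids and 52.6 CPM in the OA control. PLOD2 was at 124 and 70.5 CPM in untreated organoids and 43.9 and 61.4 CPM in the OA control, a log2 change of -0.73 ± 0.24 (adjusted p = 0.18). LOX was at 27.2 and 15.1 CPM and 13.5 and 24.6 CPM, with an interval from -0.65 to 0.64. The untreated libraries were far apart for both genes.

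Static organoids were compared between day 34 and day 21, and the day 34 libraries differed from each other. P4HA1 was at 52, 79.7 and 69.6 CPM at day 21 and at 246 and 42.7 CPM at day 34. LOX was at 8.63, 13.6 and 8.52 CPM and 43.3 and 6.32 CPM. LOXL2 was at 16, 22 and 16 CPM and 73.1 and 13.2 CPM. In each, day 34 replicate 1 lay above and replicate 2 below every day 21 library. PLOD2 was at 43.9, 77.2 and 54.4 CPM and 110.4 and 21.8 CPM, with the same split. LOXL3 (3.78, 4.55 and 3.19 CPM at day 21, 6.24 and 2.49 CPM at day 34) and PLOD3 (27.6, 24.6 and 25.5 CPM, then 29.3 and 19.4 CPM) divided in this way too, so that 6 of 10 members did, against 4.44% of the 15336 genes with a mean of at least 1 CPM. The reverse, replicate 2 above and replicate 1 below, held for 0 members and 5.39% of these genes. The pattern and the minimum were both chosen after seeing these values, so the count is a description only.

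The hypoxia-inducible list divided the day 34 libraries as well, and 1 higher and 0 lower of 14 passed between the days. Its 14 genes summed to 2114, 2871 and 2055 CPM at day 21 and 6054 and 1156 CPM at day 34, and CA9, a carbonic anhydrase induced by low oxygen, was at 0.691, 1.95 and 0.742 CPM and 15.1 and 0.175 CPM. The mesenchymal markers summed to 1859 to 2299 CPM at day 21 and to 4133 and 2578 CPM in the day 34 libraries. The hepatocyte markers summed to 1949 to 2188 CPM at day 21 and 81.5 to 747 CPM at day 34. EPCAM-positive cells were 18.3, 11.7 and 18.8% of the day 21 cells and 0.532 and 6.01% of the day 34 cells. Cells with UMIs of both classes, which enter neither class, were 42.5, 29.8 and 36.8% of the day 21 cells and 49.6 and 59.7% of the day 34 cells. The part of oxygen supply or of makeup in the members' levels was not tested.

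LOX, PLOD2 and P4HA1 are textbook targets of the hypoxia-inducible factors, which bind the letters ACGTG or GCGTG. These letters were searched on both strands in the 250 bases before each RefSeq start site (GRCh38.p14), and each starting position counted once. The sites of these 3 genes are shown with 10 bases on either side as examples of known targets, chosen after their levels were seen. The 3 are not a full list of such targets among the members. Capitals mark the match, read 5′ to 3′ along the gene's strand, which is the minus strand in all 3 genes, so CACGT is ACGTG and CACGC is GCGTG on the other strand.
LOX chr5:122078430-122078454: tccctgtgcaACGTGtctgggggga
LOX chr5:122078361-122078385: gtccgccttgCACGTttccaatcgc
LOX chr5:122078343-122078367: caatcgcattACGTGaacaaatagc
LOX chr5:122078287-122078311: aactttgcaaACGTGccagaaagtt
LOX chr5:122077277-122077301: tggcttctcgACGTGgctgcctggg
LOX chr5:122077223-122077247: atccctccccCACGCgcctgcagtg
PLOD2 chr3:146161383-146161407: cagaagcgctGCGTGagcctccaca
PLOD2 chr3:146161370-146161394: tgagcctccaCACGTagccgcaggc
PLOD2 chr3:146161316-146161340: aacagtccagACGTGgggcccagga
P4HA1 chr10:73096938-73096962: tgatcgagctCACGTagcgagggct
LOX has 3 RefSeq starts. Its first 4 sites lie 185, 116, 98 and 42 bases before the most upstream start, and the last 2 lie 117 and 63 bases before one of the other starts and 68 and 14 before the remaining start. The PLOD2 sites lie 213, 200 and 146 bases before its start and the P4HA1 site 86. Longer GENCODE transcripts of all 3 genes begin upstream of some of these sites, so the sites precede the RefSeq start and not every start. Of 35116 windows of this length, 43.2% held at least 1 match and 7.76% held 3 or more. LOXL2 was left out of the search. Windows of the other 9 members were searched, and 7 of their 12 windows, of LOX, LOXL3, PLOD1, PLOD2 and P4HA1, had a match. The windows of LOXL1, LOXL4, P4HA2 and PLOD3 had none. A match describes the letters only and shows no binding.

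Between day 34 and day 21, 2 of 10 members were called in whole ULA libraries, against 15.6% of 22261 genes (8.43% higher, 7.19% lower), so the share is near the background. LOXL4 rose from 0.646, 0.690 and 0.475 CPM to 1.25 and 2.27 CPM (log2 1.42 ± 0.36, adjusted p = 0.039), and P4HA2 from 29.9, 40.1 and 30.6 CPM to 102 and 55.1 CPM (log2 1.10 ± 0.28, adjusted p = 0.038). LOXL4 lost its call without any 1 of the day 21 libraries (1.27 to 1.53) or without day 34 replicate 2 (0.90, adjusted p = 0.073). P4HA2 lost its call without any 1 of the day 21 libraries (1.02 to 1.25) or without day 34 replicate 1 (0.59, adjusted p = 0.073). Without day 34 replicate 1, PLOD2 fell by 1.55 on the log2 scale and was called, and without day 34 replicate 2 there were 6 calls among the members, where 7166 of 23338 genes were called.

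In EPCAM-positive cells the fit had day 34 replicate 2 only, whose spread is assumed to be that of day 21. There 5 of 10 members were called, against 17.6% of 17581 genes (9.25% higher, 8.32% lower). LOXL4 was at 1.30, 0.969 and 0.715 CPM at day 21 and 12.7 CPM in that library (log2 3.30 ± 0.38, adjusted p = 0.00021), and LOXL1 at 1.85, 2.68 and 1.52 CPM and 8.03 CPM (log2 1.67 ± 0.40, adjusted p = 0.017). PLOD2 fell from 89.4, 189 and 97.6 CPM to 41.4 CPM (log2 -1.95 ± 0.43, adjusted p = 0.0096). LOX went from 9.91, 17.2 and 8.85 CPM to 2.54 CPM (log2 -2.58 ± 0.54, adjusted p = 0.0079) and P4HA1 from 61.2, 125 and 74.6 CPM to 33.4 CPM (log2 -1.74 ± 0.39, adjusted p = 0.012). With cells of both classes' UMIs kept, which brings day 34 replicate 1 in, LOX was at 0.87 (adjusted p = 0.44) and P4HA1 at 0.98 (adjusted p = 0.32). None of the 5 calls stood under it. Day 34 replicate 1 itself, left out of the class fit with 23 cells, had PLOD2 at 255 CPM from 67 UMIs, LOX at 26.6 CPM from 7 UMIs and P4HA1 at 159.8 CPM from 42 UMIs, each above every day 21 library. LOXL4 and LOXL1 were at 3.80 CPM there, from 1 UMI each. In EPCAM-positive cells 8 mesenchymal markers summed to 49, 68 and 58.9 CPM at day 21 and 247 and 483 CPM at day 34, and 8 hepatocyte markers to 6252, 7442 and 5738 CPM and 4135 and 5184 CPM. ALB was at 11.6, 16 and 14.8 CPM and 0 and 1.48 CPM, and COL1A1 at 4.58, 3.65 and 4.11 CPM and 57.1 and 26 CPM. Their part in the members' changes was not tested. DESeq2 did not call P4HA1 (adjusted p = 0.061), and LOXL1 was not called where a class needs 2 UMIs (1.43, adjusted p = 0.054).

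In collagen-positive cells both day 34 libraries entered, and edgeR called 0 of 10 members between the days, against 17.7% of 17414 genes, while DESeq2 called 2 and 3 members had an unadjusted p under 0.05. LOX was at 17, 18.1 and 16.1 CPM at day 21 and 64.6 and 17.8 CPM at day 34 (log2 1.14 ± 0.43, adjusted p = 0.10). PLOD1 was at 28.7, 25.8 and 34.5 CPM and 123 and 37.6 CPM (log2 1.31 ± 0.41, adjusted p = 0.060). In these cells the epithelial markers summed to 710 to 922 CPM at day 21 and 745 to 2717 CPM at day 34. The hypoxia-inducible genes summed to 1292 to 1896 CPM and 1073 to 4929 CPM. Their part in the members' changes was not tested. Without day 34 replicate 2, 7 members were called, as were 4685 of 18722 genes. The interaction of class and day was called for 5 of 10 members, against 20.5% of 19879 genes (12.3% higher, 8.17% lower). The change was higher in collagen-positive cells for LOX (2.49 ± 0.43), PLOD2 (1.37 ± 0.24) and P4HA1 (1.23 ± 0.28), and lower for LOXL4 (-2.59 ± 0.63) and LOXL1 (-1.78 ± 0.36), with day 34 replicate 2 alone in that group. DESeq2 did not call LOXL4 here (-2.58, adjusted p = 0.10).

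TGF-beta target genes rose between the days in whole ULA libraries for 7 of 9, among them BHLHE40 (2.36). With 15.6% of all genes called in this comparison, the counts of the next 3 lists are near the background. Of the folding and modification partners 2 higher and 2 lower of 17 passed, with COLGALT2, a collagen galactosyltransferase, at 1.65 and TMEM38B at -0.91. Of the substrates 2 higher and 1 lower of 14 passed, with COL12A1 at 2.90 and COL2A1 at -2.03. Of the processing and assembly genes 2 higher and 1 lower of 16 passed, with FBLN5, which guides elastic fibre assembly, at 2.51 and FMOD, a collagen-binding proteoglycan, at -2.78.

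Across the 14 shaker libraries, the log2 levels of LOXL1 and LOXL2 had a Pearson r of 0.95 and those of LOXL1 and LOXL3 0.94, as descriptions of libraries that share makeup and treatment. PLOD2 and P4HA1 had 0.76, and PLOD2 and LOXL4 -0.82. Libraries of the TGF-β1 and PA experiments list fewer genes than those of the OA and untreated groups. Group means of LOXL4 were 47.3 to 162 CPM in the former and 3.43 to 15.4 CPM in the latter. Those of PLOD2 were 36.1 to 49.5 CPM and 52.6 to 97.0 CPM. The part of this division in the correlations was not tested. The genes whose pattern was most like that of LOX, among 19366 genes over the same libraries, were FKBP10 (0.98), FBLN2 (0.97) and TYRP1 (0.96). For LOXL1 the nearest was PDGFRB (0.99), a receptor of mesenchymal cells, for LOXL2 MMP2 (0.98), a gelatinase, and for PLOD1 SLC39A13 (0.91), a zinc transporter. LOXL3 was nearest to PBX3 (0.97), LOXL4 to HRK (0.98), PLOD2 to RAB8B (0.94), PLOD3 to RABGGTA (0.95), P4HA1 to HSD11B1 (0.94) and P4HA2 to FAM98A (0.95).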

How the data were processed

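UMI counts of 10x Genomics single cell libraries from 19 organoid samples were used as the authors deposited them, as count matrices of 1 library each. The submitters' processing notes name bcl2fastq, Cell Ranger 3.0.2, Scanpy and GRCh38; per the file headers the matrices of the OA, OA control and untreated shaker groups come from Cell Ranger 6.0.2. Per the labels, the chemistry was the 3' v3 kit, so counts come from transcript ends. How doublets and free RNA were treated upstream is not given in the sources used here, and no doublet caller was run; cells in the top 5% of UMIs were left out as an alternative. The deposited barcodes hold at least 500 UMIs each.

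The filter kept cells in which 500 or more genes were detected and mitochondrial genes took no more than 20% of the UMIs. Counts were summed per library over all kept cells, over EPCAM-positive cells and over COL1A2/COL3A1-positive cells (at least 1 UMI of 1 kind and 0 of the other), with at least 50 cells per class and library. Sums were tested with edgeR 4.0.16 in R 4.3.3 (filterByExpr, TMM, quasi-likelihood test, Benjamini-Hochberg adjustment over all genes tested, called at an adjusted p under 0.05), with 14 shaker libraries in 1 fit and 5 ULA libraries in another. Class differences and the interaction of class and treatment were fitted within libraries. Every adjusted p in the text is from this edgeR test unless DESeq2 1.42.0, used as an alternative, is named. Intervals are 2 standard errors on either side. Values after ± are standard errors for log2 changes and SDs for CPM.

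The test was checked on simulated counts with 200 changed genes of mean count above 50. For whole libraries with TGF-β1 (19366 genes) it recovered 33% of genes changed 2-fold and 92% of genes changed 4-fold, and 32% and 92% in COL1A2/COL3A1-positive cells (14189 genes). For whole ULA libraries between the days (22261 genes) it recovered 16% and 82%. In whole libraries with TGF-β1, 22.2% of genes were called in the data, more than were changed in the simulation. The shares recovered therefore need not hold for the real comparisons, nor for members of lower counts. All 10 members were named, and of each pathway list up to 4 genes of lowest adjusted p per comparison. The members and lists were chosen with earlier results of these data known. Start sites and promoter letters come from RefSeq, positions from GENCODE v44.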

Additional observations from a re-analysis of the deposited data

Results flagged for a closer look

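A test of the difference itself drew attention to 13 changes that differed between collagen-positive and EPCAM-positive cells (adjusted p under 0.05, edgeR). Each value is the log2 change in collagen-positive cells minus that in EPCAM-positive cells, ± SE. With TGF-β1 the difference was -2.91 ± 0.36 for LOXL2, -2.57 ± 0.41 for LOX, -1.23 ± 0.26 for P4HA2 and -0.82 ± 0.23 for PLOD1. With OA it was -3.06 ± 0.43 for PLOD2, -2.70 ± 0.70 for LOX, -2.23 ± 0.41 for P4HA2 and -1.65 ± 0.51 for PLOD1, resting on 1 OA library of 60 collagen-positive cells, beside a median of -0.80 over all genes. The OA library not in the fit, of 38 such cells, had PLOD2 at 159 CPM, above both controls, where the library used had 48.1 CPM. In collagen-positive cells epithelial markers summed to 965 and 1007 CPM in the OA control and 4241 and 3794 CPM with OA, and mesenchymal markers to 5931 and 6921 CPM and 1387 and 2030.3 CPM; their part was not tested. Between day 34 and day 21 of the ULA organoids it was 2.49 ± 0.43 for LOX, 1.37 ± 0.24 for PLOD2, 1.23 ± 0.28 for P4HA1, -2.59 ± 0.63 for LOXL4 and -1.78 ± 0.36 for LOXL1, resting on 1 day 34 library. DESeq2 did not call LOXL4 there (adjusted p = 0.10). The day 34 library not in the fit, of 23 EPCAM-positive cells, had LOX, PLOD2 and P4HA1 above every day 21 library in those cells. Of the TGF-β1 calls, LOX was lost without control replicate 2 and P4HA2 without TGF-β1 replicate 1. PLOD1 was lost in both cases. With OA, the calls of LOX and PLOD1 were lost by DESeq2, by RLE normalization and without OA control replicate 2.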

How the results depend on the processing

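Depth and cell number limit some class comparisons: OA replicate 1 has 60 collagen-positive cells. Simulated 2-fold changes were recovered for 33% of genes in whole libraries with TGF-β1, 32% in collagen-positive cells with TGF-β1 and 85% for the class difference in OS. The share was lowest of those simulated, at 16%, in whole libraries for ULA day 34 against day 21. Fits with 1 library in a group borrow its spread from the others. Where a value turned or a call was lost, the cause was not tested.

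Groups share replicate numbers, so a replicate block was fitted. The deviations of same-numbered libraries from their group means had correlations of -0.22 with TGF-β1, 0.089 with PA, 0.041 with OA and -0.44 for the OA control against untreated organoids. In ULA organoids they were -0.17 and -0.27. Deviations of 2 libraries from their mean mirror each other, so each shaker comparison gives only 1 value. That cannot settle whether the numbers are pairs. The labels do not say so either, and the numbers were not read as pairs. Under the block 0 members were called in whole ULA libraries, where 0 of all 22261 genes were and where 2 members were called without it, and 6 with OA in whole libraries, where 7 were without it. In the other comparisons fitted with the block the count of members called did not change, and the class differences, the interactions and EPCAM-positive cells of ULA organoids were not fitted with it.

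Without a filter on low counts, the members called were 5 in whole libraries for ULA day 34 against day 21, 7 in collagen-positive cells for ULA day 34 against day 21 and 1 in the interaction with PA. With stricter cells (at least 1000 genes, at most 10% mitochondrial counts), the members called were 1 in whole libraries for ULA day 34 against day 21. DESeq2 called 1 in EPCAM-positive cells for OA control against untreated, 2 in collagen-positive cells for ULA day 34 against day 21 and 2 in the interaction with OA. With cells of both classes kept, chosen after seeing the data, the members called were 1 in EPCAM-positive cells for ULA day 34 against day 21, 1 in collagen-positive cells with TGF-β1, 5 in collagen-positive cells with OA and 2 in collagen-positive cells for ULA day 34 against day 21. RLE normalization called 2 in the interaction with OA. Leaving out each library in turn gave 0 to 6 in whole libraries for ULA day 34 against day 21, 3 to 5 in EPCAM-positive cells with OA and 0 to 1 in collagen-positive cells with TGF-β1. The range was 0 to 2 in collagen-positive cells with OA, 0 to 7 in collagen-positive cells for ULA day 34 against day 21 and 2 to 3 in the interaction with OA.

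Counts of genes called over all genes moved by over 1.5 times from the value given first to the range over the alternatives: 4295 (1704 to 5554) in whole libraries with TGF-β1, 9 (0 to 162) in whole libraries with PA, 8378 (5171 to 10547) in whole libraries with OA and 111 (0 to 701) in whole libraries for OA control against untreated. Likewise they were 3476 (0 to 7166) in whole libraries for ULA day 34 against day 21, 4374 (1888 to 5460) in EPCAM-positive cells with TGF-β1, 18 (0 to 126) in EPCAM-positive cells with PA and 6300 (3260 to 6923) in EPCAM-positive cells with OA. They were also 225 (0 to 837) in EPCAM-positive cells for OA control against untreated, 3 (0 to 1121) in collagen-positive cells with TGF-β1, 0 (0 to 81) in collagen-positive cells with PA and 534 (232 to 3160) in collagen-positive cells with OA. Further counts were 5 (0 to 294) in collagen-positive cells for OA control against untreated, 3083 (762 to 4758) in collagen-positive cells for ULA day 34 against day 21, 1184 (632 to 1562) in the interaction with TGF-β1 and 2 (0 to 81) in the interaction with PA. The remaining counts were 1567 (987 to 1630) in the interaction with OA, 30 (11 to 387) in the interaction for OA control against untreated, 9302 (5245 to 12600) in the class difference in ULA and 4073 (2334 to 5256) in the interaction for ULA day 34 against day 21.

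The log2 changes of some members turned sign, and LOX and P4HA1 in EPCAM-positive cells for ULA day 34 against day 21 are those of them called in the main test. With stricter cells, LOX was 0.049 in whole libraries with PA, P4HA1 was -0.074 in whole libraries with OA, and LOX was 0.0042 in whole libraries for OA control against untreated. Further, under the same setting, LOXL3 was -0.078 and PLOD2 -0.013 in whole libraries for ULA day 34 against day 21. Without the cells with most UMIs, LOXL4 was 0.023 in whole libraries with PA, P4HA2 was -0.052 and P4HA1 -0.10 in whole libraries with OA, and LOX was 0.066 in whole libraries for OA control against untreated. Further, under the same setting, LOXL3 was -0.041 in whole libraries for ULA day 34 against day 21, P4HA2 was 0.039 and LOXL4 0.025 in EPCAM-positive cells with PA, and PLOD1 was 0.0097 in EPCAM-positive cells with OA. Also there, PLOD1 was -0.022 in EPCAM-positive cells for ULA day 34 against day 21, LOXL3 was 0.092 in collagen-positive cells with TGF-β1, and P4HA1 was 0.0012 in collagen-positive cells for OA control against untreated. Besides, P4HA2 was 0.031, PLOD3 0.019 and LOXL2 0.0018 in the interaction with PA, and PLOD1 was 0.023, LOXL3 0.042 and LOXL2 -0.051 in the interaction for OA control against untreated. Without a filter on low counts, P4HA1 was -0.0031 in whole libraries with OA, LOX was 0.00088 in whole libraries for OA control against untreated, and P4HA2 was 0.0031 in EPCAM-positive cells with PA. Further, under the same setting, PLOD1 was 0.040 in EPCAM-positive cells with OA, PLOD1 was -0.00057 in EPCAM-positive cells for ULA day 34 against day 21, and PLOD1 was -0.015 in collagen-positive cells for OA control against untreated. With the replicate block, P4HA1 was -0.0082 in whole libraries with OA, LOX was 0.0049 in whole libraries for OA control against untreated, and LOXL3 was -0.19 and PLOD2 -0.36 in whole libraries for ULA day 34 against day 21. Further, under the same setting, LOXL3 was 0.018 in collagen-positive cells with TGF-β1, and LOXL3 was -0.15 in collagen-positive cells for ULA day 34 against day 21. With every deposited barcode, P4HA1 was -0.00053 in whole libraries with OA. With only the 2 groups compared, P4HA1 was -0.041 in whole libraries with OA. With cells of both classes kept, LOX was -1.22 in EPCAM-positive cells with OA, LOXL2 was -0.0030 in EPCAM-positive cells for OA control against untreated, and LOX was 0.87, LOXL2 1.81 and P4HA1 0.98 in EPCAM-positive cells for ULA day 34 against day 21. Further, under the same setting, LOXL4 was 1.23 in collagen-positive cells with TGF-β1, LOXL3 was -0.064 and LOXL4 -0.046 in collagen-positive cells with PA, and PLOD2 was 0.18, PLOD3 0.065 and P4HA1 0.19 in collagen-positive cells with OA. Also there, LOX was -0.12 in collagen-positive cells for OA control against untreated, and LOXL3 was -0.11 and PLOD3 -0.10 in collagen-positive cells for ULA day 34 against day 21. By DESeq2, P4HA1 was 0.0086 in collagen-positive cells with OA, PLOD1 was -0.0037 in collagen-positive cells for OA control against untreated, and LOXL2 was 0.098 in the interaction with PA. Further, under the same setting, LOXL2 was 0.079 in the interaction with OA. By RLE normalization, P4HA1 was 0.0085 in collagen-positive cells with OA, PLOD1 was -0.0040 in collagen-positive cells for OA control against untreated, and LOXL2 was 0.075 in the interaction with OA. Where a class needs 2 UMIs, PLOD1 was -0.0037 in collagen-positive cells for OA control against untreated, and LOXL3 was 0.050 in the interaction for OA control against untreated.

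Leaving out each library in turn, the log2 changes that turned sign had these ranges. In whole libraries with PA the range was -0.82 to 0.10 for LOX, -0.25 to 0.13 for P4HA2, -0.20 to 0.043 for PLOD3, -0.096 to 0.068 for LOXL4 and -0.77 to 0.12 for LOXL1. In whole libraries with OA they were -0.32 to 0.27 for P4HA1. In whole libraries for OA control against untreated the range was -0.40 to 0.40 for LOX and -0.25 to 0.88 for P4HA2. In whole libraries for ULA day 34 against day 21 they were -0.75 to 0.55 for LOXL3, -1.55 to 0.76 for PLOD2, -0.82 to 1.93 for LOX, -0.54 to 0.027 for PLOD3, -0.58 to 1.87 for LOXL2 and -0.78 to 1.72 for P4HA1. In EPCAM-positive cells with PA the range was -0.26 to 0.21 for P4HA2, -0.26 to 0.033 for PLOD3, -0.11 to 0.045 for LOXL4 and -0.041 to 0.84 for LOXL1. In EPCAM-positive cells with OA they were -0.097 to 0.096 for PLOD1. In EPCAM-positive cells for OA control against untreated the range was -0.027 to 0.17 for PLOD1, -0.97 to 0.11 for LOX, -0.12 to 0.56 for P4HA2, -0.57 to 0.93 for LOXL2 and -0.14 to 0.79 for LOXL1. In collagen-positive cells with TGF-β1 they were -0.49 to 0.61 for LOXL3 and -2.21 to 0.61 for LOXL4. In collagen-positive cells with PA the range was -0.48 to 1.31 for LOXL3, -1.09 to 0.036 for PLOD2, -0.55 to 0.00081 for P4HA2, -0.12 to 0.51 for P4HA1 and -0.47 to 1.26 for LOXL4. In collagen-positive cells for OA control against untreated they were -0.096 to 0.086 for PLOD1, -0.056 to 0.97 for LOXL3, -0.037 to 0.25 for LOX, -0.091 to 0.97 for P4HA2 and -0.22 to 0.11 for P4HA1. In collagen-positive cells for ULA day 34 against day 21 the range was -0.62 to 0.49 for LOXL3, -0.54 to 1.76 for PLOD2, -0.069 to 1.80 for LOX, -0.060 to 1.09 for P4HA2, -0.088 to 0.24 for PLOD3 and -0.46 to 1.19 for LOXL2. Further there, -0.46 to 1.60 for P4HA1 and -0.11 to 0.33 for LOXL1. In the interaction with TGF-β1 they were -0.032 to 1.49 for LOXL3, -0.065 to 0.47 for PLOD2, -0.066 to 0.60 for P4HA1 and -0.055 to 0.57 for LOXL1. In the interaction with PA the range was -0.28 to 0.14 for PLOD1, -0.76 to 0.34 for P4HA2, -0.44 to 0.25 for PLOD3, -0.41 to 0.97 for LOXL2, -0.94 to 0.13 for P4HA1 and -0.47 to 1.45 for LOXL4. In the interaction with OA they were -1.04 to 0.67 for LOXL2. In the interaction for OA control against untreated the range was -0.16 to 0.036 for PLOD1, -1.48 to 0.88 for LOXL3, -0.17 to 1.23 for LOX, -0.15 to 0.21 for PLOD3, -0.35 to 1.15 for LOXL2 and -0.015 to 0.57 for P4HA1. Further there, -0.67 to 1.29 for LOXL4 and -0.14 to 0.57 for LOXL1. In the class difference in ULA they were -0.097 to 0.021 for PLOD1 and -0.36 to 0.18 for P4HA1. In the interaction for ULA day 34 against day 21 the range was -0.068 to 0.36 for LOXL3 and -0.12 to 0.53 for LOXL2.

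Of all alternatives to the members' log2 changes, 2093 kept direction and side of the threshold, 59 passed only in the alternative, 67 lost the call and 151 turned sign. With cells of both classes kept, LOX with OA in EPCAM-positive cells (adjusted p = 0.0053) and LOXL4 with TGF-β1 in collagen-positive cells (adjusted p = 0.017) turned and were called, as did PLOD2 in whole ULA libraries without day 34 replicate 1 (adjusted p = 0.0028). Further members called only in an alternative include PLOD1 with OA in whole libraries (only the 2 groups compared), PLOD3 (DESeq2, RLE normalization, both classes kept) and P4HA2 (no filter on low counts) with OA in EPCAM-positive cells, LOXL4 (no filter, 2 UMIs, without the cells with most UMIs) and PLOD3 (2 UMIs) in the interaction with TGF-β1 and LOX in the interaction with PA (no filter). They also include LOX with OA in collagen-positive cells (no filter), and in ULA organoids PLOD1 in whole libraries (DESeq2, no filter), LOX and LOXL2 in whole libraries (no filter), and PLOD3 (no filter) and P4HA2 (both classes kept) in EPCAM-positive cells.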
